A study of Mus musculus with 18 samples.

Results

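Transcripts that mark blood vessels, pericytes, fibroblasts and red blood cells were followed here in mammary epithelial cells that had been purified by fluorescence-activated cell sorting. The set held 32 genes of 46257 gene IDs in the table, taken by gene symbol from a list of markers of stromal and blood cell types that was drawn up with earlier results of these data known. It comprised 16 endothelial genes, 5 pericyte genes, 9 fibroblast genes and 2 erythroid genes. All 32 were found in the table and all 32 passed the filter on low values. The study sequenced bulk RNA from 3 sorted mouse mammary populations, basal cells, estrogen receptor positive (ER+) luminal cells and estrogen receptor negative (ER-) luminal cells, at puberty, in adults and at mid pregnancy, with 2 libraries in each of the 9 groups. All 18 samples carried the same genotype, ERrtTA/TetOCre/rosaYFP, which names a tetracycline-controlled Cre recombinase and a YFP reporter. The labels do not describe these alleles further, and ages, any doxycycline treatment, the sorting gates and whether the 2 libraries of a group came from separate animals are not stated in them. P-values therefore measure only the spread between these libraries, which may be technical. The titles call all 6 basal samples BC, and grouping followed them, although the cell type field of the 4 from puberty and pregnancy names luminal cells and only the adult samples are given there as basal cells.

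The mammary epithelium is a bilayer in which basal myoepithelial cells surround luminal cells, and it lies in a stroma of fat, fibroblasts and vessels. Endothelial cells line those vessels and are held together by junctional adhesion molecules, pericytes wrap the capillaries and receive platelet-derived growth factor from the endothelium, and fibroblasts make the collagen-binding proteoglycans of the matrix. Sorting is meant to separate epithelial cells from these neighbours, so their transcripts are commonly used to read the makeup of a sorted fraction.

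Values are the read counts that the authors scaled to nearly the same total in each library and deposited as whole numbers, and they are called scaled counts below. Depth, recovered from the spacing of the values, ran from 2406221 reads in adult ER+ library 2 to 11292227 reads in puberty ER- library 2, and the 4 adult luminal libraries were the shallowest, at 2406221 to 3165238 reads. The 7 basal markers checked summed to between 137556 and 296896 in the basal libraries and between 846 and 36672 in the luminal ones, so the basal libraries held their defining transcripts. Luminal transcripts were also present in them: pan-luminal markers summed to 16131 to 57455 in basal and 46167 to 142261 in luminal libraries, and in adults the basal mean of these markers was 0.481 times the luminal mean. The luminal libraries of pregnancy held more of these basal transcripts, 24978 to 36672, than those of adults, 2152 to 4728. Markers of ER+ cells summed to 28655 to 208870 in ER+ and 5813 to 44090 in ER- libraries, with no overlap within a stage. Markers of ER- cells stood at 40161 and 103704 in pregnancy ER+ libraries 1 and 2, and at 107527 and 39472 in pregnancy ER- libraries 1 and 2. Both ER+ libraries were thus above ER- library 2, where these markers go against the labels and the ER+ markers do not. Counts without ER+ library 2 or ER- library 2 are given below. In bulk samples, fewer cells of a type and less RNA per cell cannot be told apart. The 32 genes together took 0.0204% to 0.0337% of the scaled count in the 4 adult luminal libraries and 0.0770% to 0.258% in the other 14.

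The endothelial genes were present in every population, and their summed level separated the adult luminal libraries from the rest. The 16 genes summed to 14939 and 22801 in puberty basal cells, to 20512 and 23270 in adult basal cells and to 11023 and 9184 in pregnancy basal cells. In ER+ cells the sum was 19046 and 4317 at puberty, 2561 and 2049 in adults and 13016 and 7710 in pregnancy. In ER- cells it was 15526 and 4143 at puberty, 1692 and 1304 in adults and 9987 and 9257 in pregnancy. The 4 adult luminal libraries were the lowest of the 18, and the second luminal libraries of puberty came next. Pecam1, an adhesion molecule of endothelial junctions that lies at chr11:106654217-106750628 in GRCm38, was lowest in the same libraries but in another order. Its adult ER+ values were below its adult ER- values, unlike the sums. Pecam1 in puberty ER+ library 2 was below that in adult ER- library 1 and in puberty ER- library 2. Its scaled count was 2197 and 3485 in basal, 3057 and 202 in ER+ and 2718 and 518 in ER- cells at puberty. In adults it was 3012 and 4318 in basal, 125 and 99 in ER+ and 266 and 195 in ER- cells. In pregnancy it was 1179 and 1077 in basal, 1291 and 824 in ER+ and 1380 and 1247 in ER- cells. Basal and luminal libraries were thus far apart in adults, overlapped at puberty and overlapped in pregnancy.

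**Figure D1:**
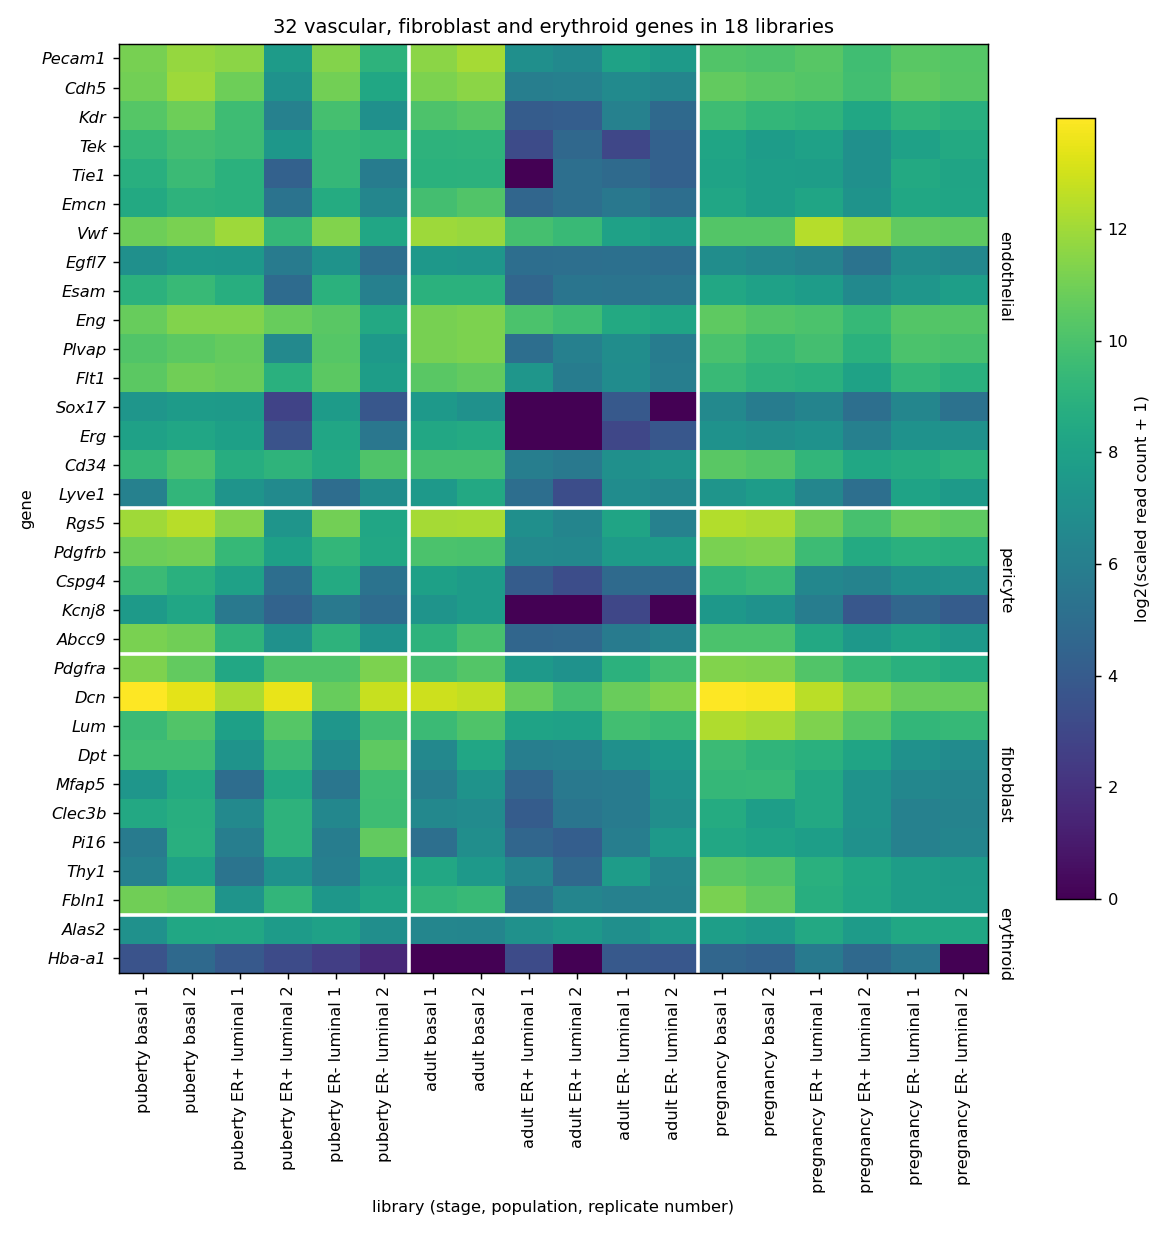
Scaled counts of the 32 genes on the log2(value + 1) scale, with 1 row per gene grouped by class and 1 column per library grouped by stage and population. Low values are dark. The 4 adult luminal columns are dark for most endothelial and pericyte genes, and the pair of columns of each puberty luminal population differ from each other.

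Cdh5, which encodes the junctional cadherin of vessels, was read at 2092 and 3899 in basal, 1937 and 138 in ER+ and 2052 and 320 in ER- cells of puberty. In adults it stood at 2409 and 2991 in basal cells against 63 and 66 in ER+ and 103 and 82 in ER- cells. In pregnancy the 6 libraries lay between 846 and 1568. Cdh5 therefore spanned nearly the whole range of the adult libraries between gates, and a narrow range in pregnancy. Among the receptors of vascular endothelial growth factor, Kdr was at 1071 and 1299 in adult basal cells, at 16 and 17 in adult ER+ cells and at 69 and 26 in adult ER- cells. In pregnancy Kdr was at 811 and 610 in basal, 552 and 327 in ER+ and 576 and 459 in ER- cells, so its basal libraries were still the higher ones. Flt1, another such receptor, was at 1382 and 1585 in adult basal cells and at 58 to 163 in the 4 adult luminal libraries.

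Tek, at chr4:94739289-94874976, encodes the receptor of the angiopoietins, and its closest relative is Tie1. Tek was at 528 and 540 in adult basal cells, and at 8 and 25 in ER+ and 7 and 19 in ER- cells of the same stage. In pregnancy it was at 294 and 212 in basal, 253 and 130 in ER+ and 253 and 361 in ER- cells. At puberty it was at 627 and 903 in basal, 769 and 166 in ER+ and 646 and 569 in ER- cells. Its 4 adult luminal values were the lowest of the 18, and they rest on 1 and 3 reads in ER+ and 1 and 3 reads in ER- cells. The 2 puberty ER- libraries were close together in Tek, unlike in the other endothelial genes. Tie1 ranged from 0 in adult ER+ library 1 to 748 in puberty basal library 2. The transcription factor genes Sox17 and Erg were listed at 0, with 0 reads, in both adult ER+ libraries. For a group at 0, a level worth 3 reads over the group was set as the limit, and the bounds given hold only under it. Erg, an ETS family factor of endothelium at chr16:95359169-95586593, was at 330 and 380 in adult basal cells and at 7 and 13 in adult ER- cells. Against the limit of 3 reads over the group, Erg was at least 29.4-fold and Sox17 at least 13.0-fold higher in adult basal than in adult ER+ cells.

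Emcn, a sialoglycoprotein gene of capillaries and veins, reached 890 and 1163 in adult basal cells and 24 to 48 in the 4 adult luminal libraries. Plvap encodes the diaphragm protein of fenestrae and caveolae. It was at 2254 and 2396 in adult basal cells, at 32 to 116 in adult luminal cells and at 488 to 1047 in the 6 libraries of pregnancy. Egfl7, a secreted endothelial factor, and Esam, an adhesion molecule, varied over smaller ranges, 32 to 191 and 24 to 686 over the 18 libraries. Per kilobase of transcript, Plvap had the highest mean of the 16 endothelial genes, 440 scaled counts over the 18 libraries, and Sox17 the lowest, 17.3. Reads of Egfl7, Eng, Plvap, Cdh5, Sox17 and Cd34 may be shared with genes that overlap them in the annotation, because strand use in the counting is not given in the sources used here. The same holds for Abcc9, Pdgfra, Dpt, Pi16 and Alas2 of the other classes.

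Cd34 and Lyve1 are less restricted to endothelium than the others, since Cd34 is also found on stromal progenitor cells and fibroblasts and Lyve1, a hyaluronan receptor of lymphatic vessels, also on macrophages. Cd34 was at 635 and 1047 in basal, 418 and 557 in ER+ and 357 and 1137 in ER- cells of puberty. In adults it was at 917 and 915 in basal, 63 and 50 in ER+ and 130 and 151 in ER- cells. In pregnancy it was at 1370 and 1176 in basal, 587 and 327 in ER+ and 391 and 496 in ER- cells. Its basal libraries exceeded its luminal libraries in adults and in pregnancy and overlapped with them at puberty. Lyve1 ran from 9 to 596, and the highest of its 18 values was in puberty basal library 2.

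Promoter sequence is shown for endothelial genes because all 16 were higher in adult basal than in adult luminal cells, as tested below. RefSeq windows in GRCm38.p6, from 250 bases before to 50 after the annotated start, were held for 19 of the 32 genes. A 6-base form of an ETS family binding motif, AGGAAG, or CTTCCT on the opposite strand, was searched on both strands. Other or shorter forms of the motif were not searched and are not marked. The 6-base form occurred in 35.35% of all 32851 windows of the same length, and in 8 of the 13 windows of endothelial genes, 61.54%. Some of these genes have several windows. By gene, at least 1 window held it in 7 of 9 endothelial, 0 of 4 pericyte, 1 of 4 fibroblast and 2 of 2 erythroid genes. A gene with several windows has more chances of a match, and no share by gene over all genes was computed. A match is a description of the letters only. The windows of Tie1 (chr4:118489800-118490099, minus strand), Emcn (chr3:137340828-137341127, plus strand), Flt1 (chr5:147725962-147726261, minus strand) and Eng (chr2:32646345-32646644, plus strand) each held 2 matches and are printed with the motif in capitals, followed by Kdr (chr5:75978406-75978705, minus strand), whose window held no match.
Tie1: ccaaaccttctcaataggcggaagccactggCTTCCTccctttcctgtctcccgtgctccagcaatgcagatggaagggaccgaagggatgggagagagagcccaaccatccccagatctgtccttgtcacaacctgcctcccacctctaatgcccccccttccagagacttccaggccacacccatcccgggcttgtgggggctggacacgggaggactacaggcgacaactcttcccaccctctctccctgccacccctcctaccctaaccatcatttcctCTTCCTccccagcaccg
Emcn: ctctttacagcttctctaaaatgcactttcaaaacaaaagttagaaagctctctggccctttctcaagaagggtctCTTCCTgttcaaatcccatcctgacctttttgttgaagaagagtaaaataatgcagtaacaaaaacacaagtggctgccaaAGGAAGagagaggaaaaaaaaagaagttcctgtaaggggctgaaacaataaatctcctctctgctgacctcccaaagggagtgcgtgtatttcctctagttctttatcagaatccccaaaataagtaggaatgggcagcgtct
Flt1: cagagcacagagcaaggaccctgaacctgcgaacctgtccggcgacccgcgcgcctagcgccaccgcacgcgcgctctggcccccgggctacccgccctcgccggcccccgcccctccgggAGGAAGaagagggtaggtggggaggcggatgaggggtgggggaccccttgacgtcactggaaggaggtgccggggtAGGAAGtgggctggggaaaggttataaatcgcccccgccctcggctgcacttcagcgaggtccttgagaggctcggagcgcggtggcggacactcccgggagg
Eng: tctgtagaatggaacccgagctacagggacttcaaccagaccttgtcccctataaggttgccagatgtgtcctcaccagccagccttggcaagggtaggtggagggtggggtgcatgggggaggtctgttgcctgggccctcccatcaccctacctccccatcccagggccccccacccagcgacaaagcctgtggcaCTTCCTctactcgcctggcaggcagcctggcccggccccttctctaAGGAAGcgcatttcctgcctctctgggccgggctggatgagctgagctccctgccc
Kdr: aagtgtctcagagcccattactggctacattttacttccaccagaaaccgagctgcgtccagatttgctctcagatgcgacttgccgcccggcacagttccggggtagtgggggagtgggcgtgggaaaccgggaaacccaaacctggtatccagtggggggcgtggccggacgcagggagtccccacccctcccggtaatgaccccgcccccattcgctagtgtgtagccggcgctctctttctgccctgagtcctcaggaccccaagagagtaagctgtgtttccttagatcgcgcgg

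The summed level of the 5 pericyte genes was higher in the basal gate at every stage. The 5 genes summed to 9240 and 10597 in basal cells of puberty, 6371 and 6898 in those of adults and 9418 and 9199 in those of pregnancy. The luminal sums were 4172 and 587 in ER+ and 3645 and 851 in ER- cells of puberty. They were 259 and 208 in ER+ and 582 and 372 in ER- cells of adults, and 3274 and 1601 in ER+ and 2616 and 2234 in ER- cells of pregnancy. All 6 basal sums lay above all 12 luminal sums. The sum of 8 other pericyte and vascular smooth muscle genes did not follow this: its basal mean was 1.06 times the luminal mean at puberty, 0.932 times in adults and 0.694 times in pregnancy. That list includes Notch3, a receptor gene that was lower in basal cells at each stage by limma. Pdgfrb, the receptor that pericytes use for platelet-derived growth factor, was at 1881 and 2071, 1033 and 1008, and 2319 and 2461 in basal cells of puberty, adults and pregnancy. Its luminal values ran from 91 in adult ER+ library 2 to 777 in pregnancy ER+ library 1, below every basal value. Rgs5, a regulator of G protein signalling, had the highest mean of the class per kilobase, 499 scaled counts, and also showed no overlap, with basal values of 4068 to 5783 and luminal values of 69 to 2638.

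Kcnj8 and Abcc9 encode the pore and the regulatory subunit of an ATP-sensitive potassium channel of mural cells, and the genes are neighbours on the minus strand of chromosome 6, at chr6:142564837-142571614 and chr6:142587862-142702315. Kcnj8 was at 193 and 308 in basal, 50 and 21 in ER+ and 50 and 30 in ER- cells of puberty. In adults it was at 149 and 202 in basal, 0 and 0 in ER+ and 7 and 0 in ER- cells. In pregnancy it was at 172 and 140 in basal, 60 and 13 in ER+ and 24 and 16 in ER- cells. Every basal value of Kcnj8 was above every luminal value, and against 3 reads over the group it was at least 14.5-fold higher in adult basal than in adult ER+ cells. Abcc9 was higher at puberty in basal cells, at 2345 and 1962, than in basal cells of adults, at 518 and 966, or of pregnancy, at 1061 and 1044. Cspg4, a membrane proteoglycan of pericytes, ran from 207 to 753 in basal and from 9 to 373 in luminal libraries. The pericyte sum was 85.4% and 100.2% of the endothelial sum in the basal libraries of pregnancy, and 10.1% and 10.2% of it in adult ER+ cells. The endothelial sum of adult ER+ cells, 2561 and 2049, included Eng at 1040 and 800 and Vwf at 939 and 718. Every other endothelial gene was at 163 or less there, so the low percentages rest largely on Eng and Vwf.

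Fibroblast transcripts followed another order. The 9 genes summed to 22881 and 17610, 10636 and 10617, and 29453 and 26308 in basal cells of puberty, adults and pregnancy. ER+ cells held 5872 and 17113 at puberty, 2371 and 1621 in adults and 11981 and 6150 in pregnancy. ER- cells held 3534 and 15579 at puberty, 3747 and 4810 in adults and 3645 and 3471 in pregnancy. The ER- sums of pregnancy were thus no higher than those of adults, and at puberty the second library of each luminal population was the higher. Dcn, the collagen-binding proteoglycan decorin at chr10:97479609-97518143, had the highest mean of the 32 genes per kilobase, 1117 scaled counts. Dcn was at 16239 and 10817 in basal, 4767 and 11866 in ER+ and 1732 and 7060 in ER- cells of puberty. In adults it was at 7818 and 6765 in basal, 1676 and 941 in ER+ and 1793 and 2444 in ER- cells. In pregnancy it was at 16100 and 14997 in basal, 5987 and 2919 in ER+ and 1770 and 1683 in ER- cells. Dcn in ER- cells therefore stood at similar levels in adults and in pregnancy, while in ER+ cells both pregnancy libraries exceeded both adult ones.

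Lum, the related proteoglycan lumican, lies next to Dcn at chr10:97565128-97572703 and did not keep a fixed ratio to it. Lum was at 4.58% to 12.9% of Dcn in the 6 puberty libraries, 9.32% to 48.3% in the 6 adult libraries and 29.1% to 42.8% in the 6 pregnancy libraries. In basal cells Lum was at 743 and 1152 at puberty, 729 and 1116 in adults and 5052 and 4361 in pregnancy. Thy1, a surface glycoprotein of fibroblasts and other cells, was likewise high in pregnancy basal cells, at 1377 and 1163, against 69 and 266 at puberty and 335 and 179 in adults. Fbln1 encodes a matrix fibulin. It was at 1966 and 1680 in puberty basal, 591 and 675 in adult basal and 2289 and 1593 in pregnancy basal cells, and between 39 and 588 in the 12 luminal libraries, so its gates did not overlap. Pdgfra, the other receptor for platelet-derived growth factor, was at 332 and 1136 in ER+ and 1115 and 2393 in ER- cells of puberty. It was at 179 and 141 in ER+ and 505 and 853 in ER- cells of adults, and at 1179 and 650 in ER+ and 468 and 372 in ER- cells of pregnancy. ER- cells had the higher Pdgfra values in adults and ER+ cells in pregnancy. Pi16, Mfap5, Clec3b and Dpt, a peptidase inhibitor and 3 extracellular proteins, each had at least 1 puberty luminal library above every adult library. Pi16 was highest of all in puberty ER- library 2, at 1607.

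Erythroid transcripts overlapped between the gates at puberty and in pregnancy, while in adults both basal values of Alas2, 86 and 80, lay below the luminal ones, 123 to 182. Alas2, the first enzyme of heme synthesis in red cell precursors, ran from 80 in adult basal library 2 to 353 in pregnancy ER+ library 1. Reads of Alas2 may be shared with Apex2, which overlaps it on the opposite strand, so its values may not all be erythroid. Hba-a1, an alpha globin gene whose near-identical copy Hba-a2 may share its reads, ran from 0 to 54 and was listed at 0 in both adult basal libraries, in adult ER+ library 2 and in pregnancy ER- library 2. Neither gave a call in any comparison below.

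**Figure D2:**
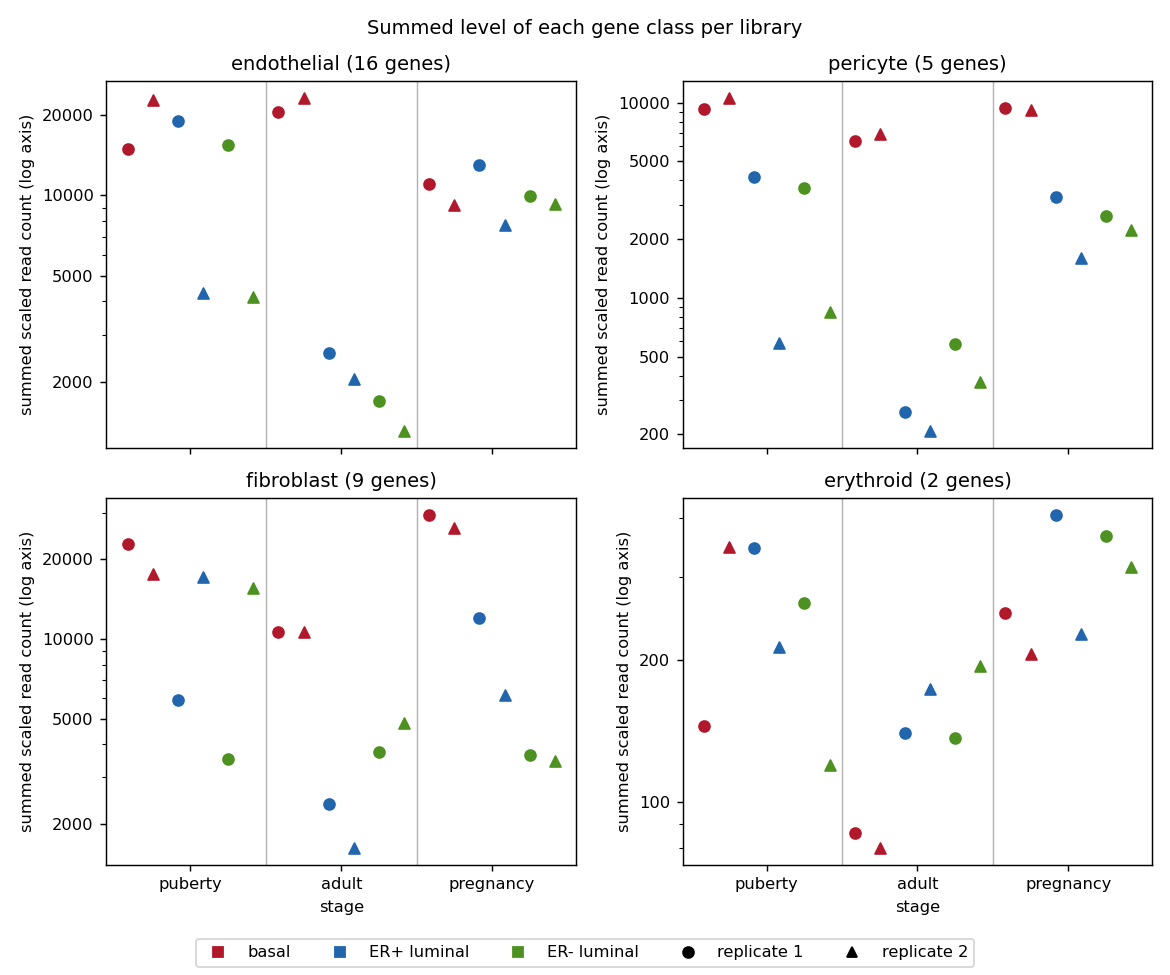
Summed scaled count of each class in each library on a log axis, with the stage along the horizontal axis, colour for the population and shape for the library number. Adult luminal points lie lowest for the endothelial class, at 1304 to 2561, and the pericyte class holds no luminal point above a basal one.

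At puberty the 2 libraries of each luminal population differed in a way that was shared by ER+ and ER- cells and opposite between classes. In ER+ cells, 15 of 16 endothelial genes were higher in library 1 with a median of 11.83-fold, and all 5 pericyte genes with a median of 4.205-fold. All 9 fibroblast genes were instead higher in library 2, with a median of 5.07-fold. In ER- cells, 14 of 16 endothelial and all 5 pericyte genes were higher in library 1, with medians of 6.484-fold and 3.78-fold, and all 9 fibroblast genes were higher in library 2 with a median of 5.623-fold. Sox17 had the largest endothelial ratio, 32.5-fold in ER+ and 15.5-fold in ER- cells. Pi16 was 8.33-fold and Mfap5 11.2-fold higher in library 2 of the ER+ cells, and 26.8-fold and 18.8-fold higher in library 2 of the ER- cells. The exceptions among endothelial genes were Cd34, which was higher in library 2 by 1.33-fold in ER+ and 3.18-fold in ER- cells, and Lyve1, which was higher in library 2 of the ER- cells by 3.65-fold. Tek was 4.63-fold higher in library 1 in ER+ cells and 1.14-fold in ER- cells. Markers of other types moved with the first libraries, whose basal list summed to 11950 and 13169 against 846 and 2992 in the second. The adipocyte list summed to 6706 and 8663 in the first against 1021 and 1711 in the second. Their part in the result was not tested. There is 1 pair per population, so these ratios have no replicate check of their own.

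**Figure D3:**
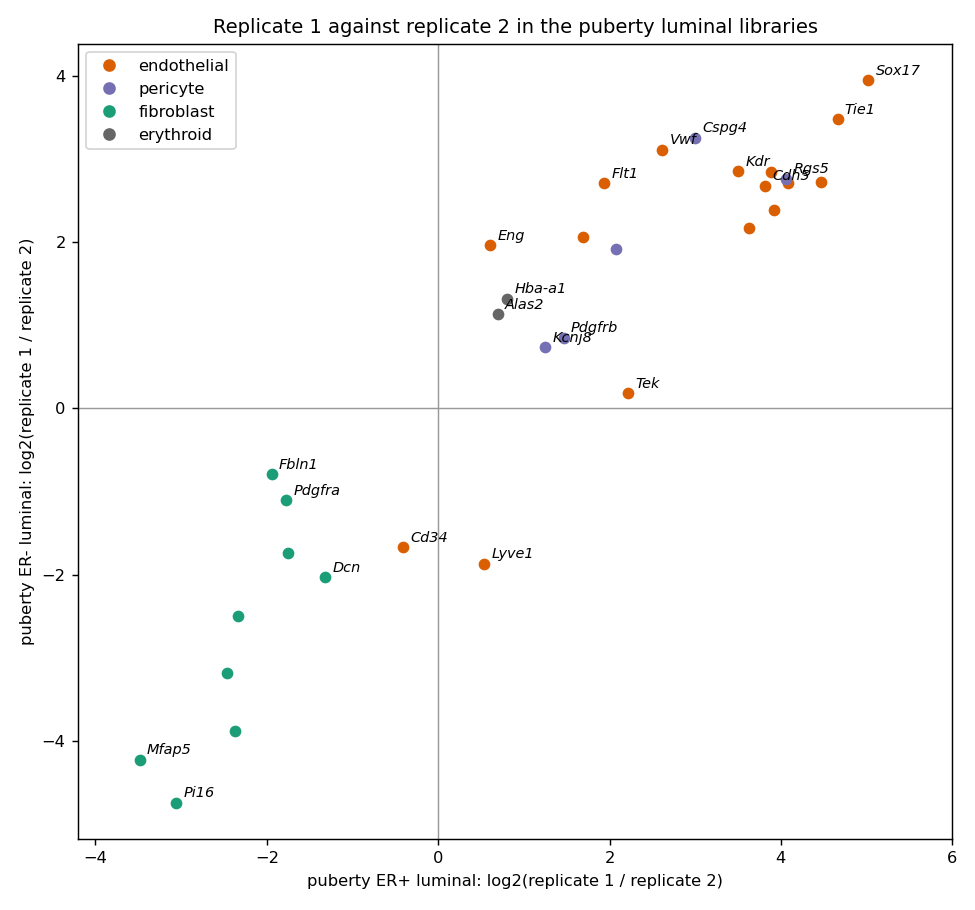
Log2 ratio of library 1 to library 2 for each gene in puberty ER+ cells (horizontal) and puberty ER- cells (vertical), coloured by class. Endothelial and pericyte genes lie mostly at upper right, and all 9 fibroblast genes lie at lower left.

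In the other groups the medians of the endothelial, pericyte and fibroblast classes differed less between libraries. In pregnancy ER+ cells library 1 was the higher in all 32 genes, with class medians of 1.802-fold for endothelial, 2.072-fold for pericyte and 1.814-fold for fibroblast genes. In puberty basal cells library 2 was the higher in 16 of 16 endothelial genes, with a median of 1.491-fold. Single genes differed more there, such as Lyve1 at 69 and 596 and Pi16 at 55 and 458.

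The first question the design poses is whether the basal gate held more of these transcripts than the luminal gates. Over the 3 stages, 25 of the 32 genes were higher in basal cells and 0 were lower (limma on log2(value + 1), Benjamini-Hochberg adjusted p under 0.05). Over all 22315 genes tested 42.5% were called, 20.9% as higher and 21.5% as lower. The median of all genes was -0.03 on the log2 scale. Of the endothelial genes 15 of 16 passed, with a median log2 difference of 2.08 over the class. Pecam1 was higher by 1.99 ± 0.53 (SE), with an adjusted p of 0.012 from limma with Benjamini-Hochberg adjustment. Only Vwf among them did not pass, at 0.97 ± 0.47 (limma, adjusted p = 0.122). All 5 pericyte genes passed with a median of 3.09, from Pdgfrb at 2.45 ± 0.20 (limma, adjusted p = 2.9e-07) to Kcnj8 at 4.04 ± 0.44 (limma, adjusted p = 2.57e-06). The fitted value of Kcnj8 includes a group listed at 0 and is no bound. Of the fibroblast genes 5 of 9 passed, Pdgfra, Dcn, Lum, Thy1 and Fbln1, and the class median was 1.37. Fbln1 was higher by 2.96 ± 0.25 (limma, adjusted p = 5.18e-07), while Pi16 stood at 0.40 ± 0.76 (limma, adjusted p = 0.712). Calls of 22 of the 25 genes were kept when any 1 library was left out, and those of Tie1, Lum and Lyve1 were lost. Tie1 had an adjusted p of 0.0938 and Lum of 0.0619 without puberty basal library 2, and Lyve1 had 0.0601 without adult basal library 2 (limma). Without the 6 adult libraries 8 genes passed. In 4 genes, Rgs5, Pdgfrb, Kcnj8 and Fbln1, every basal library was above every luminal library over all stages, which held for 4.43% of all genes, and in 0 genes was it the other way, against 2.22%.

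Related genes outside the 32 gave similar counts in the same comparison. Of 18 other endothelial genes 17 were higher in basal cells, with a median of 2.09, among them Cldn5, a tight junction claudin, at 3.26 ± 0.66 and Sox7, a transcription factor, at 2.94 ± 0.60. Of 8 other pericyte and vascular smooth muscle genes 7 were higher, with Gja4, a gap junction protein, at 3.11, and 1 was lower, the receptor gene Notch3 at -1.11. Of 12 other fibroblast genes 6 were higher, with Serpinf1 at 2.50, and Scara5 was lower at -1.07. Of 4 lymphatic genes tested 3 were higher, among them Reln at 5.13 and Mmrn1 at 3.14, and the lymphatic transcription factor gene Prox1 was lower at -1.13. Of 5 adipocyte genes Lep at 3.74 and Fabp4 at 2.43 were higher, and of 8 immune genes Ptprc at 1.22 and Lyz2 at 1.06 were higher. Of 5 other erythroid genes tested none passed.

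The comparison by stage gave different numbers of calls. At puberty 5 of the 32 genes were higher in basal cells, against 21.4% of all genes called, 11.3% as higher and 10.2% as lower. These were Pdgfrb at 2.21 ± 0.35, Cspg4 at 2.49 ± 0.82, Kcnj8 at 2.75 ± 0.76, Abcc9 at 2.97 ± 0.58 and Fbln1 at 2.81 ± 0.43. No endothelial gene passed at puberty, where the class median was 1.48. Abcc9, Fbln1 and Pdgfrb kept their calls when any 1 library was left out. The count of genes called was 13 without puberty ER+ library 1, 10 without ER- library 1 and 3 without basal library 2. Without both first luminal libraries of puberty, an alternative chosen after the data were seen, 19 genes passed, and without both second ones 10 passed. In 9 genes, Cdh5, Kdr, Esam, the 5 pericyte genes and Fbln1, every puberty basal library was above every puberty luminal one, against 19.9% of all genes.

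In adults 24 of the 32 genes were higher in basal cells, against 30.9% of all genes called, 18.6% as higher and 12.3% as lower. All 16 endothelial genes passed, with a median of 4.69, or 4.47 with genes listed at 0 set at their bound. Tek was higher by 5.27 ± 0.58 (limma, adjusted p = 2.26e-05) and Cdh5 by 5.11 ± 0.93 (limma, adjusted p = 0.00242). All 5 pericyte genes passed, and of the fibroblast genes Pdgfra at 1.67 ± 0.47, Dcn at 2.16 ± 0.55 and Fbln1 at 3.28 ± 0.43 did. In each of 24 genes both basal libraries were above all 4 luminal ones, against 21.3% of all genes, and Alas2 lay the other way, against 15.2%. Of the calls, 18 were kept when any 1 library was left out. Esam, Tie1, Vwf, Dcn and Lyve1 lost theirs without either adult basal library, with an adjusted p from limma of up to 0.106 for Tie1 and 0.204 for Lyve1. Lyve1 also lost it without adult ER+ library 2 or ER- library 2, and Pdgfra lost its call without adult basal library 2, at 0.15, or without ER- library 1. The mean endothelial sum of the basal libraries was 11.5 times that of the luminal ones, and the ratio was 18.7 for the pericyte and 3.39 for the fibroblast class. The same ratio was 0.932 for the sum of the other pericyte and vascular smooth muscle genes and 0.876 for that of the other fibroblast genes, below 1 in both. Adipocyte markers moved with the endothelial genes, with a ratio of 27.0 for the sum of 5 genes, and their part in the result was not tested. Of the 18 other endothelial genes 16 passed in adults, with a median of 4.36, and so did 6 of the 8 other pericyte and 2 of the 12 other fibroblast genes.

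In pregnancy 8 of the 32 genes were higher in basal cells, against 19.7% of all genes called, 8.64% as higher and 11.1% as lower. Cd34 was the 1 endothelial gene among them, at 1.53 ± 0.37 (limma, adjusted p = 0.01). The others were Pdgfrb at 2.27 ± 0.35, Cspg4 at 2.67 ± 0.82, Kcnj8 at 2.67 ± 0.76, Abcc9 at 2.17 ± 0.58, Pdgfra at 2.05 ± 0.47, Dcn at 2.53 ± 0.55 and Fbln1 at 2.79 ± 0.43. The endothelial median was 0.33, Pecam1 stood at -0.05 ± 0.92 (limma, adjusted p = 0.989) and Vwf at -1.06 ± 0.81 (limma, adjusted p = 0.414). The mean endothelial sum of the basal libraries was 1.01 times that of the luminal ones, whereas the ratio was 3.83 for the pericyte and 4.42 for the fibroblast class. For the related lists the ratio was 0.694 for the other pericyte and vascular smooth muscle genes and 3.49 for the other fibroblast genes. In 16 genes both pregnancy basal libraries were above all 4 luminal ones, against 15.6% of all genes, and these included all 5 pericyte genes and 8 of 9 fibroblast genes. Vwf lay the other way, against 24% of all genes. Fbln1 and Pdgfrb kept their calls when any 1 library was left out. The count was 2 without either pregnancy basal library and 5 without ER+ library 2 or ER- library 2. Of the 18 other endothelial genes 0 passed in pregnancy, with a median of 0.17, and of the 12 other fibroblast genes 6 did. Of the 8 other pericyte genes 0 were higher and Notch3 was lower.

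**Figure D4:**
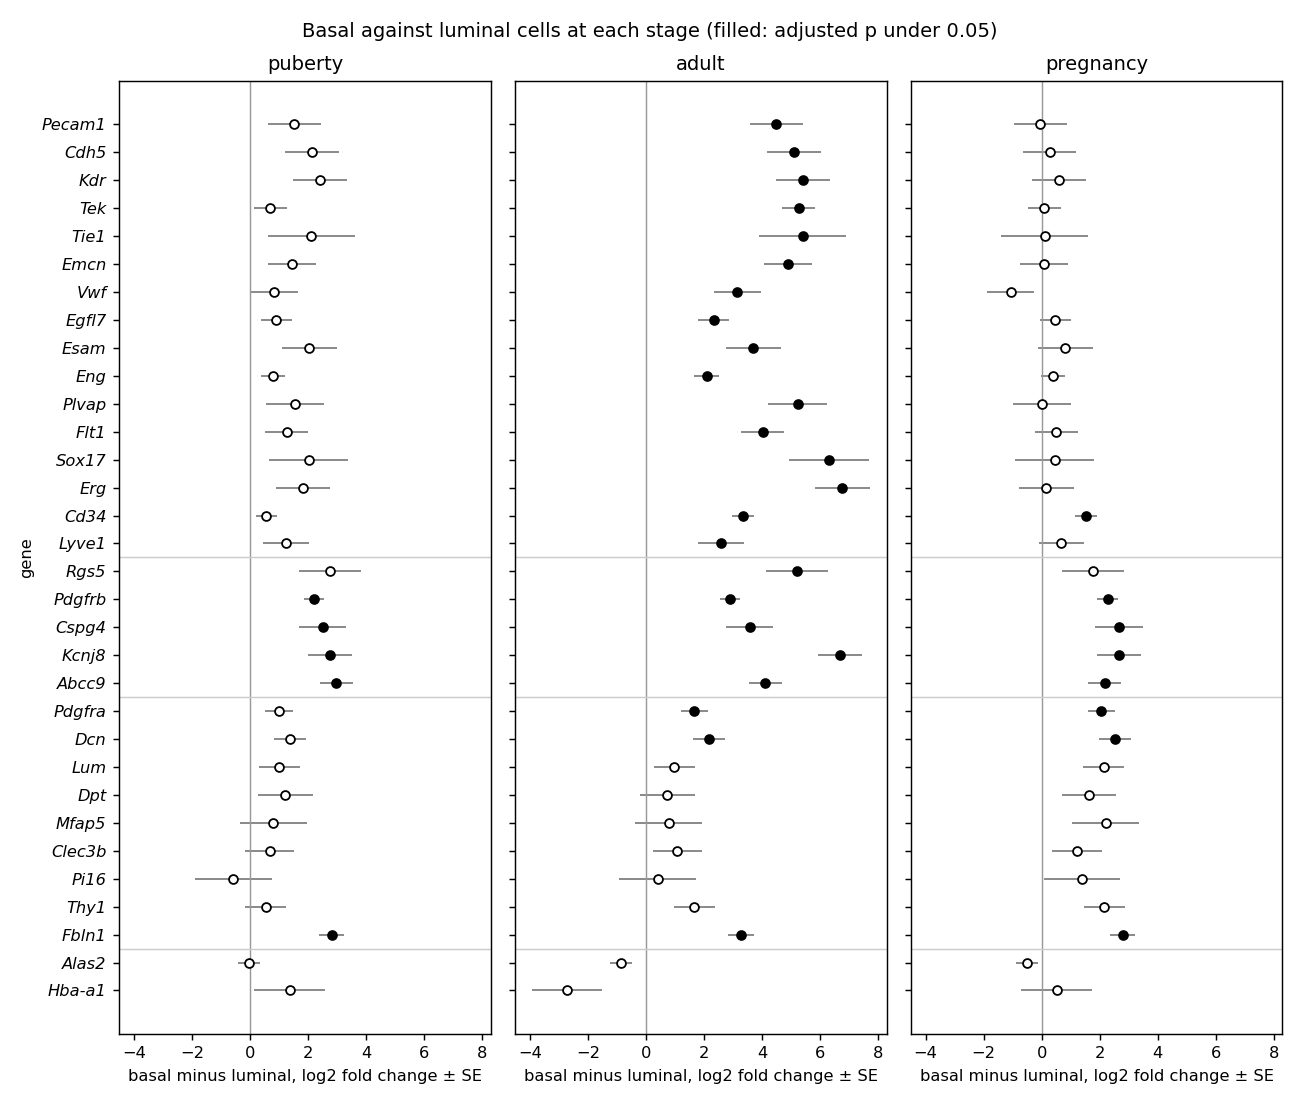
Log2 fold change of basal over luminal cells ± SE for each of the 32 genes at puberty, in adults and in pregnancy, with filled points for adjusted p under 0.05 by limma. Endothelial points lie far to the right in adults, with a median of 4.69, and close to 0 in pregnancy, with a median of 0.33.

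Whether the basal to luminal difference itself changed between stages was tested as a difference of differences. From puberty to adults it was larger in 4 of the 32 genes, against 6.59% of all genes called, 4.5% as larger and 2.09% as smaller. These were Tek by 4.57 ± 0.82 (limma, adjusted p = 0.00551), Cd34 by 2.80 ± 0.52 (0.00617), Kcnj8 by 3.95 ± 1.07 (0.0388) and Erg by 4.95 ± 1.33 (0.0446). From adults to pregnancy, in a comparison added after the data were seen, it was smaller in 4 genes, against 6.18% of all genes called, 4.67% as smaller and 1.51% as larger. Both comparisons use the adult libraries. Here Tek differed by -5.17 ± 0.82 (limma, adjusted p = 0.00304), Erg by -6.61 ± 1.33 (0.0124), Emcn by -4.83 ± 1.17 (0.0351) and Kcnj8 by -4.03 ± 1.07 (0.0373). The fitted values of Erg and Kcnj8 include adult ER+ libraries listed at 0 and are no bounds. In both comparisons Tek alone of the called genes kept its call when any 1 library was left out. Tek nevertheless held only 1 and 3 reads in the adult ER+ and 1 and 3 in the adult ER- libraries. Its fitted differences thus also depend on the pseudocount. The count from puberty to adults was 1 without puberty basal library 1, 9 without puberty ER+ library 2, and 2 without puberty basal library 2, puberty ER- library 1 or either adult basal library. The count from adults to pregnancy was 1 without adult basal library 2 or either pregnancy basal library, and 2 without adult basal library 1, pregnancy ER+ library 1 or pregnancy ER- library 2. Between puberty and pregnancy 0 genes differed by limma, against 0.744% of all genes, 0.255% as larger and 0.488% as smaller, and 0 had an unadjusted p under 0.05. Pdgfrb differed by 0.68 ± 0.50 between puberty and adults and by -0.62 ± 0.50 between adults and pregnancy, neither of which passed.

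The luminal populations were compared with each other next. Over the 3 stages 1 of the 32 genes was higher in ER+ than in ER- cells, against 25.5% of all genes called, 10.3% as higher and 15.2% as lower. This was Eng, a co-receptor of transforming growth factor beta, at 0.88 ± 0.28 (limma, adjusted p = 0.0395). It lost the call without any of 8 of the 12 luminal libraries, with an adjusted p of up to 0.108, and the count of genes called was 5 without puberty ER+ library 1, 4 without puberty ER- library 1 and 3 without either second puberty luminal library. The 8 libraries are the 4 of adults, pregnancy ER+ library 1, both of pregnancy ER- and puberty ER+ library 1. Eng was at 2627 and 1728 in ER+ and 1336 and 343 in ER- cells of puberty. It was at 1040 and 800 in ER+ and 355 and 282 in ER- cells of adults, and at 1026 and 666 in ER+ and 1198 and 1217 in ER- cells of pregnancy. The ER+ values of Eng were above the ER- values at puberty and in adults, and below them in pregnancy.

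Vwf, the clotting glycoprotein of endothelium at chr6:125546774-125686679, stood at 1.40 ± 0.54 in the same comparison and did not pass (limma, adjusted p = 0.0867). It was at 3883 and 634 in ER+ and 2629 and 304 in ER- cells of puberty, 939 and 718 in ER+ and 253 and 201 in ER- cells of adults, and 5623 and 3297 in ER+ and 1562 and 1442 in ER- cells of pregnancy. Basal cells held 1926 and 2317, 3967 and 3671, and 1219 and 1212 at these stages. The pregnancy ER+ libraries thus had more Vwf than any ER- library or any other pregnancy library. Ratios of scaled counts to Pecam1, not per length, differed between genes. Vwf was at 127% to 751% of Pecam1 in the 6 ER+ libraries, with a median of 418%. It was at 66.5% to 132% in the 6 basal libraries and 58.7% to 116% in the 6 ER- libraries. Eng was at 855%, 832% and 808% of Pecam1 in puberty ER+ library 2 and adult ER+ libraries 1 and 2, and at 49.2% to 145% in the other 15. Cdh5 stayed between 38.7% and 133% and Plvap between 25.6% and 83.5% in all 18. Tek was at 82.2% of Pecam1 in puberty ER+ library 2 and 110% in puberty ER- library 2, against 2.63% to 28.9% elsewhere. Cd34 was at 276% and 220% in those libraries, against 13.1% to 116% elsewhere. These ratios are descriptions, and they were not tested.

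**Figure D5:**
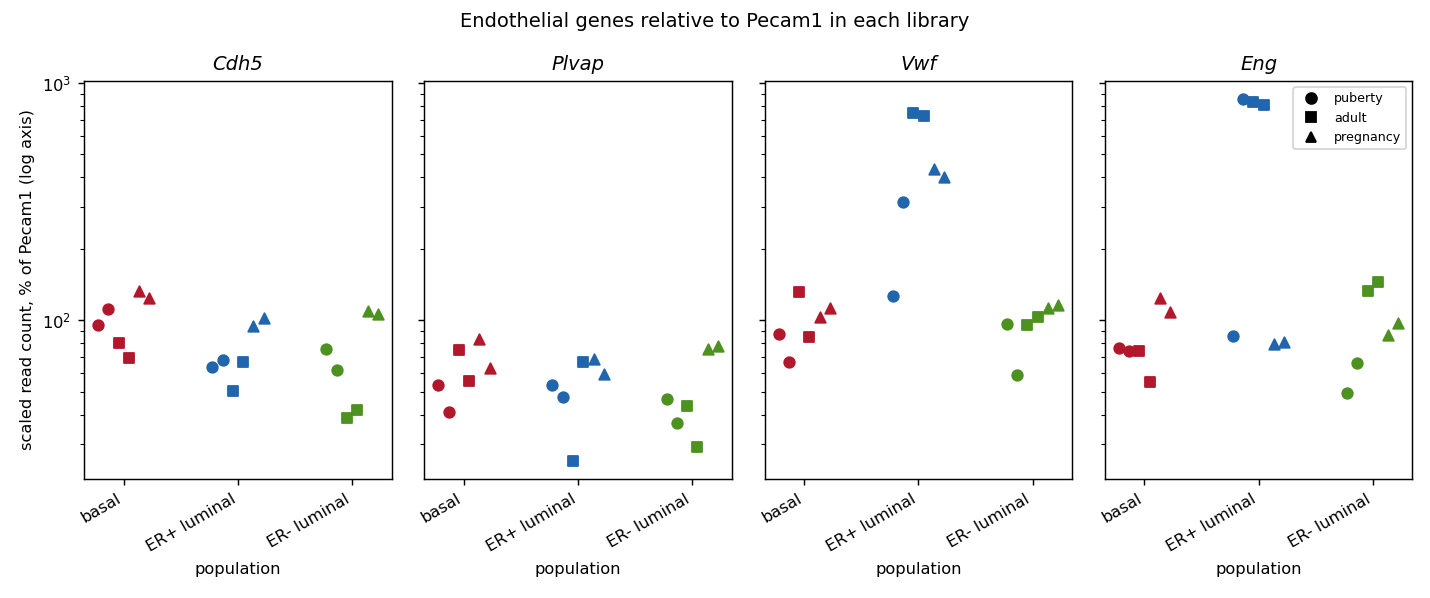
Scaled counts of Cdh5, Plvap, Vwf and Eng as a percentage of Pecam1 in each library, on a log axis, with libraries grouped by stage and population. Vwf is highest in ER+ libraries, up to 751%, while Cdh5 and Plvap stay between 25.6% and 133% throughout.

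Pregnancy was compared with adults within each population. In ER+ cells 14 of the 32 genes were higher in pregnancy, against 17.9% of all genes called, 12.8% as higher and 5.05% as lower. The 7 endothelial genes among them were Cdh5 at 3.96 ± 1.07, Kdr at 4.61 ± 1.07, Tek at 3.58 ± 0.67, Plvap at 3.81 ± 1.16, Cd34 at 2.94 ± 0.43, and Sox17 and Erg, whose adult values were 0. Against 3 reads over the group, Erg was at least 8.52-fold, Sox17 at least 4.59-fold and Kcnj8 at least 3.02-fold higher in pregnancy. The endothelial median was 3.07, or 2.87 with these genes at their bound, and the pericyte median 3.29, or 2.66. Of the pericyte genes Pdgfrb at 2.53 ± 0.40, Abcc9 at 3.29 ± 0.66 and Kcnj8 passed. Of the fibroblast genes Pdgfra at 2.45 ± 0.54, Lum at 2.75 ± 0.82, Thy1 at 3.11 ± 0.82 and Fbln1 at 2.65 ± 0.50 passed. Eng stood at -0.14 ± 0.49 (limma, adjusted p = 0.886). The calls of 7 genes, Tek, Erg, Cd34, Pdgfrb, Kcnj8, Abcc9 and Fbln1, were kept when any 1 library was left out. The count was 8 without adult ER+ library 2 or pregnancy ER+ library 2, and 7 without pregnancy ER+ library 1. The test on recovered reads (edgeR) called 8. Among the related genes, 9 of 18 other endothelial, 8 of 12 other fibroblast and 3 of 5 other erythroid genes were higher, and so were 4 of 7 basal genes, among them Krt14 at 2.49 and Trp63 at 2.31. Basal and stromal transcripts moved together here, and the part of the first in the second was not tested.

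In ER- cells 7 of the 32 genes were higher in pregnancy than in adults, against 14.4% of all genes called, 8.89% as higher and 5.51% as lower. These were Cdh5 at 3.93 ± 1.07, Kdr at 3.57 ± 1.07, Tek at 4.58 ± 0.67, Eng at 1.93 ± 0.49, Erg at 3.70 ± 1.09, Cd34 at 1.65 ± 0.43 and the pericyte gene Kcnj8 at 2.87 ± 0.88. Tek had an adjusted p of 0.00105 by limma and was the 1 gene that kept its call when any 1 library was left out. Leaving out any 1 of the 4 libraries of this comparison leaves 1 in its group, so a call lost there does not single out a library. The log2 difference then ran from 3.77 to 4.09 for Cdh5, 2.88 to 4.25 for Kdr, 3.92 to 5.24 for Tek and 1.76 to 2.09 for Eng. It ran from 3.30 to 4.11 for Erg, 1.47 to 1.82 for Cd34 and 1.37 to 4.37 for Kcnj8. None of the 9 fibroblast genes passed, and their median was -0.28. Of the related genes, 5 of 18 other endothelial genes and 2 of 7 basal genes were higher, and 1 of 12 other fibroblast genes, Scara5, was lower at -2.69. A direct test of whether the change differed between ER+ and ER- cells, added after the data were seen, called 0 of the 32 genes by limma, against 2.07% of all genes, 1.85% as more positive in ER+ cells and 0.224% as less, and 8 had an unadjusted p under 0.05. In it Pdgfra stood at 3.11 ± 0.76 (limma, adjusted p = 0.0644) and the fibroblast median was 2.88. The difference in fibroblast counts between ER+ and ER- cells was therefore not shown gene by gene.

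In basal cells 0 of the 32 genes passed between pregnancy and adults by limma, against 7.26% of all genes called, 2.92% as higher and 4.34% as lower. An unadjusted p under 0.05 was reached by 7 genes, and edgeR called 2. The medians were -1.02 for endothelial, 0.57 for pericyte and 1.93 for fibroblast genes.

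Pregnancy was also compared with puberty, with the same pregnancy libraries. In ER+ cells 0 genes passed by limma, against 13.1% of all genes, 7.34% as higher and 5.73% as lower, with 2 at an unadjusted p under 0.05 and 1 called by edgeR. The count was 3 without puberty ER+ library 1. In ER- cells Pdgfra was lower in pregnancy by limma, at -1.97 ± 0.54 with an adjusted p of 0.0314, against 14.8% of all genes called, 6.04% as lower and 8.78% as higher. Without puberty ER- library 2, where Pdgfra was at 2393, its adjusted p was 0.236 by limma, and without puberty ER- library 1 the count was 6. In basal cells 0 genes passed by limma, against 2.07% of all genes, 0.668% as higher and 1.4% as lower, with 3 at an unadjusted p under 0.05. Thy1 stood at 3.21 ± 0.82 in that comparison, with an adjusted p of 0.0715 by limma.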

How the data were processed

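RNA of 18 sorted mouse mammary samples was extracted with RNeasy micro columns and made into libraries with the Ovation Solo kit, per the labels' protocols. Reads were processed with STAR, Picard and HTSeq on GRCm38 (mm10), per the submitters' processing notes, and no versions were named there. The authors deposited 1 table of signal values, whole numbers whose library totals lie between 19819213 and 19881049. The values returned 99.76% to 99.95% of entries when taken as reads times a step per library, rounded up, which gave the depths. This was inferred from the values.

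All 46868 rows were read, of which 790 rows belong to 179 repeated IDs. Genes at 10 or more in at least 2 libraries, 22315 in all, were fitted in 1 model of 9 group means with limma 3.58.1 (R 4.3.3, trended and robust empirical Bayes, 9 residual degrees of freedom) on log2(value + 1). In adult luminal libraries 1 read is worth several scaled counts, so for a gene listed at 0 the fitted change depends on the pseudocount, and bounds are given where such a group is compared directly. Tests are 2-sided, and a call is a Benjamini-Hochberg adjusted p under 0.05 over all genes tested. Luminal means weight ER+ and ER- cells equally. The scripts were tested on simulated data. The alternatives included edgeR 4.0.16 quasi-likelihood on the recovered reads, other pseudocounts, filters and scalings, and leaving out libraries. The 32 genes and the lists of related genes were chosen with earlier results of these data known. All of the 32 could be named, and of each related list up to 4, by the largest change among called genes over the 3 stages. Krt14, Trp63 and, for its change in ER- cells, Scara5 are named beside counts. The main model did not pair libraries by number. Over all genes, correlations of deviations between groups ran from -0.0884 to 0.269 in all 36 pairs of groups. In the 9 pairs within a stage they ran from 0.0159 to 0.269, so all of these were positive. The 0.269 is that of puberty ER+ with ER- cells, whose same-numbered libraries did deviate together, with a correlation of 0.931 over the 32 genes. SEs and p-values of the main model treat all libraries as independent. For the 32 genes the puberty luminal libraries do not meet this, which limits the comparisons that use them.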

Additional observations from a re-analysis of the deposited data

Results flagged for a closer look

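For 5 genes limma called the difference between basal and luminal cells as itself different between stages. Over all genes, 6.59% were called between puberty and adults and 6.18% between adults and pregnancy. Tek, the angiopoietin receptor gene, kept its call in both comparisons when any 1 library was left out. It held only 1 to 3 reads in each adult luminal library. Its basal to luminal log2 difference was larger in adults than at puberty by 4.57 and differed by -5.17 from adults to pregnancy. The endothelial transcription factor gene Erg differed by 4.95 and -6.61 and the pericyte channel gene Kcnj8 by 3.95 and -4.03 in the same comparisons, and both were listed at 0 in the adult ER+ libraries. Cd34 differed by 2.80 between puberty and adults, and Emcn by -4.83 between adults and pregnancy. Erg, Kcnj8, Cd34 and Emcn did not keep every call when any 1 library was left out, which leaves 1 in its group. Erg and Kcnj8 also lost their calls between puberty and adults with a pseudocount of 8, plain empirical Bayes or edgeR. Cd34 kept its call under these settings. Emcn lost its call with plain empirical Bayes or no filter. The adult luminal libraries were also the shallowest, and stage and depth cannot be told apart in them.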

How the results depend on the processing

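No direction turned in the 93 gene results of called genes: over 1960 values under alternatives, 1711 stayed on the same side of the threshold and 249 lost the call. In the comparison of pregnancy with adult ER+ cells, the median over all genes went from 0.21 to -0.11 under quantile normalization. Over all genes, the number called there was 3991, and 993 with the compared groups alone. It went from 4399 to 1281 for basal against luminal cells without pregnancy basal library 1, from 3213 to 775 for pregnancy against adult ER- cells without pregnancy ER- library 2 and from 1620 to 190 for basal cells without adult basal library 2. Without any 1 library, the count of the 32 genes called was 22 to 28 for basal against luminal cells over the 3 stages, 3 to 13 at puberty, 18 to 24 in adults and 2 to 7 in pregnancy. It was 0 to 5 for ER+ against ER- cells, 7 to 10, 1 to 3 and 0 for pregnancy against adults in ER+, ER- and basal cells, and 0 to 3, 0 to 6 and 0 for pregnancy against puberty. For the basal to luminal difference it was 0 between puberty and pregnancy, 1 to 9 between puberty and adults and 1 to 5 between adults and pregnancy, and it was 0 to 1 for the difference between ER+ and ER- changes.

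The cause was not tested for the following changes. A pseudocount of 8 gave 4 calls for pregnancy against adult ER- cells and 2 for the difference between puberty and adults. A pseudocount of 32 gave 4 and 2 in these, 2 for pregnancy against adult basal cells, 1 for pregnancy against puberty basal cells and 2 for the difference between adults and pregnancy. No filter gave 0 for ER+ against ER- cells and 4 for pregnancy against adult ER- cells. A minimum of 50 gave 2 and 12 in these, 11 for the difference between adults and pregnancy and 1 for the difference between ER+ and ER- changes. Median-ratio scaling gave 8 for the difference between adults and pregnancy, and quantile normalization gave 7 there and 2 for pregnancy against adult basal cells. Plain empirical Bayes gave 0 for ER+ against ER- cells, 3 for pregnancy against adult ER- cells, 0 for pregnancy against puberty ER- cells and 2 for each difference that involves adults.

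Fitting the compared groups alone gave 16 for basal against luminal cells in pregnancy, 0 for ER+ against ER- cells, 22 and 17 for pregnancy against adults in ER- and basal cells, and 1, 2 and 11 for pregnancy against puberty in ER+, ER- and basal cells. It gave 2 and 15 for the differences between puberty and adults and between adults and pregnancy, and 5 for the difference between ER+ and ER- changes. edgeR on recovered reads gave 8, 3 and 2 for pregnancy against adults in ER+, ER- and basal cells, 1 for pregnancy against puberty ER+ cells and 2 for the difference between puberty and adults. Without the 6 adult libraries the count was 8 for basal against luminal cells and 0 for ER+ against ER- cells, and without the 6 of pregnancy it was 2 for the latter.

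With the replicate number as a block, 15 genes were called for pregnancy against adult ER- cells, 2 for basal cells and 10 for the difference between adults and pregnancy. A block within stage, added after the data were seen, gave 4 for ER+ against ER- cells. Without both first puberty luminal libraries, likewise added, the counts were 19 for basal against luminal cells at puberty, 9 for ER+ against ER- cells, 12 and 15 for pregnancy against puberty in ER+ and ER- cells and 11 for the difference between puberty and pregnancy. Without both second ones they were 10 at puberty, 5 for ER+ against ER- cells, 7 for pregnancy against puberty ER+ cells and 18 for the difference between puberty and adults. Depth limits the adult luminal libraries most, where 1 read is worth several scaled counts. A group listed at 0 was bounded there by the set limit of 3 reads.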
